A study of Mus musculus with 6 samples.

Results

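Opposite-strand (os) transcripts are genes named after a neighbour on the other DNA strand, here called the host. Of the 31763 genes measured in the medial prefrontal cortex (mPFC), the 257 described here carried a name that ended in os, or in os and digits, and that without the ending was the name of another measured gene. These 257 genes belonged to 218 hosts, of which 189 had 1 opposite-strand gene and 29 had between 2 and 4. RNA had been sequenced from 3 saline and 3 morphine samples of mPFC tissue, taken from male C57BL/6J mice of 8 to 10 weeks. The morphine group was injected intraperitoneally with 10 mg/kg morphine and the saline group with 10 ml/kg saline during conditioned place preference (CPP) training, in which a drug is paired with 1 chamber of an apparatus. Both groups were then given a first post-conditioning test and left in the home cage without drug for 1 week before the retrieval test and tissue collection. The comparison asked which transcripts of the mPFC differ between these groups after retrieval of a morphine-induced reward memory. No morphine group lacked the retrieval test or the pairing, so effects of retrieval and of earlier morphine exposure cannot be told apart. The sources used here do not say whether a sample was 1 mouse or a pool, and the p-values rest on the spread of the 3 samples of a group, which may be in part technical.

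A gene pair on opposite strands can be arranged in several ways. In a head-to-head pair the transcripts start close to each other and run apart, often from a shared promoter rich in CpG dinucleotides. In the other common arrangement the lncRNA lies across introns or exons of its host, as a natural antisense transcript. Some antisense RNAs are known to act on their host. Uchl1os raises translation of the mRNA of Uchl1, a neuronal deubiquitinase, through a SINE repeat in its sequence, and Dlx6os1, also known as Evf2, acts with homeobox proteins at the Dlx5 and Dlx6 locus in developing interneurons. Others have no known role.

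In the annotation of the files' build (mm10, that is GRCm38), all 257 genes lay on the strand opposite to the host. In 109 pairs a transcript of the lncRNA and one of the host had annotated starts within 1000 bases of each other. These are called head to head here, whether or not the transcripts also overlapped. Starts inside a gene body were included, so the host start meant can lie far from the 5′ end of the host, as for Ube4bos3. In 132 further pairs the gene bodies overlapped without such close starts, here called overlapping, and in the remaining 16 the genes lay apart. Exon bases were shared with the host in 147 pairs. Whether reads were counted by strand is not given in these sources, and without strand, reads from shared exon bases cannot be assigned to 1 gene of a pair. By annotated type, 220 of the 257 were antisense, 11 processed transcripts, 9 lincRNAs, 3 bidirectional promoter lncRNAs, 2 TEC (a class awaiting experimental evidence) and 1 a transcribed pseudogene. The other 11 were protein coding, among them Brd3os, Slc7a6os and Wdr83os, so the os ending does not by itself mark a noncoding gene, and the 257 are called lncRNAs below only for short.

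The median sequence content at the lncRNA's start differed between the arrangements, with wide ranges. RefSeq promoter windows of GRCm38, from 250 bases before to 50 bases after an annotated start, were found for 153 of the 257 genes, some with several starts. The 89 windows of head-to-head genes held a median of 14 CpG dinucleotides (interquartile range 6 to 27), the 84 windows of overlapping genes a median of 4 (2 to 7), the 262 windows of hosts a median of 19 and all 32851 mouse windows a median of 7. A TATAAA motif, searched on both strands, was found in 3.37% of the head-to-head windows, 11.9% of the overlapping windows and 13.6% of all windows. The windows below, or the longest part of each outside annotated UTRs, show both kinds for lncRNAs whose values follow. They are written 5′ to 3′ on the lncRNA's strand with each CpG in capitals. Those of Uchl1os, Pcsk2os1, Kcnd3os and Cep83os are of pairs classed here as head to head.
Uchl1os (chr5:66676448-66676747, minus strand): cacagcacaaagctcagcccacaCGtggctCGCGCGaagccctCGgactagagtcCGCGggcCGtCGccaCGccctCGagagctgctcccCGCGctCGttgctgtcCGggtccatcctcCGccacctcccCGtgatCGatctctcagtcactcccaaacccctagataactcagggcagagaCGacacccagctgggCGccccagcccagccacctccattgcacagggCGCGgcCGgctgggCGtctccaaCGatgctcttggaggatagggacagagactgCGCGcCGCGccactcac
Pcsk2os1 (chr2:143547788-143548087, minus strand): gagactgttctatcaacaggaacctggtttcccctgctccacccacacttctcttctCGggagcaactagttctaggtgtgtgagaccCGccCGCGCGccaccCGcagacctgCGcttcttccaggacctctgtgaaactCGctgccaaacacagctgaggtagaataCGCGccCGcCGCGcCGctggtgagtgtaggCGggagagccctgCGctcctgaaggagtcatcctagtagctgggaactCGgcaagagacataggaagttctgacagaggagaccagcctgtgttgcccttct
Kcnd3os (chr3:105452906-105453085, minus strand): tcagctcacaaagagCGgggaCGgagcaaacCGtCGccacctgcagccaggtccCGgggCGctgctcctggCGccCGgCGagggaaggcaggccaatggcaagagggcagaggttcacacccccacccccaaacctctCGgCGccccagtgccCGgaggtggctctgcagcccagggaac
Cep83os (chr10:94688564-94688653, minus strand): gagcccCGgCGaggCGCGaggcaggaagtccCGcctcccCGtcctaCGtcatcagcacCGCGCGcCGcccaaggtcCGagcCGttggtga
Those of Pcsk2os2, Chn1os3, Ppp2r2cos, Dlx6os1, Dlx6os2 and Rab10os are of overlapping pairs, and Rab10os is shown as one that does not follow the median.
Pcsk2os2 (chr2:143789137-143789436, minus strand): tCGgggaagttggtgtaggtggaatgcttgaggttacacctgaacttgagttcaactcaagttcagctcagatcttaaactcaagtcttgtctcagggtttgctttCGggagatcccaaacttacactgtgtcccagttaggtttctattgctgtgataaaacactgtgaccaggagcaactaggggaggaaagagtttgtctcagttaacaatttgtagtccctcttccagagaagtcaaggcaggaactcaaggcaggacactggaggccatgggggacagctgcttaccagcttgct
Chn1os3 (chr2:73596276-73596575, plus strand): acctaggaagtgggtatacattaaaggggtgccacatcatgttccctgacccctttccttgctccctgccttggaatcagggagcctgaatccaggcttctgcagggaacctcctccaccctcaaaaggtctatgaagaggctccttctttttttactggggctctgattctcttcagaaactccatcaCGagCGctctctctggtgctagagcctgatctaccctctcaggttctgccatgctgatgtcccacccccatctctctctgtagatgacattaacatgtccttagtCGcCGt
Ppp2r2cos (chr5:36876830-36877129, minus strand): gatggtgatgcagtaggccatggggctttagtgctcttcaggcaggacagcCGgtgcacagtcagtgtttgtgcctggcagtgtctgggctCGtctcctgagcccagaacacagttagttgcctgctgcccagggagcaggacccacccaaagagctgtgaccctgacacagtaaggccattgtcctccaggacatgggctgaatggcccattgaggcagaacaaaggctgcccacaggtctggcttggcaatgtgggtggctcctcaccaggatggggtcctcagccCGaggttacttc
Dlx6os1 (chr6:6869484-6869783, minus strand): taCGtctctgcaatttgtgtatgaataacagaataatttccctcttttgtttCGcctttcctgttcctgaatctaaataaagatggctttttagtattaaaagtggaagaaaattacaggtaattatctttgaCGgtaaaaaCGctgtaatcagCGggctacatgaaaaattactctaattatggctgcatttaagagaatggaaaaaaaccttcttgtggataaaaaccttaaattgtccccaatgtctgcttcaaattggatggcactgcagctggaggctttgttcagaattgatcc
Dlx6os2 (chr6:6865101-6865400, minus strand): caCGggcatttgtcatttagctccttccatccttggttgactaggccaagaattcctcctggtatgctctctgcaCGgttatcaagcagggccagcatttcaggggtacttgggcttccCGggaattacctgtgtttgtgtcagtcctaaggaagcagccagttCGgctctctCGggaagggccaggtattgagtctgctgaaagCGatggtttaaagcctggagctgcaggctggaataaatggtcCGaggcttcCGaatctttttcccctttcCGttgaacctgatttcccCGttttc
Rab10os (chr12:3235541-3235840, plus strand): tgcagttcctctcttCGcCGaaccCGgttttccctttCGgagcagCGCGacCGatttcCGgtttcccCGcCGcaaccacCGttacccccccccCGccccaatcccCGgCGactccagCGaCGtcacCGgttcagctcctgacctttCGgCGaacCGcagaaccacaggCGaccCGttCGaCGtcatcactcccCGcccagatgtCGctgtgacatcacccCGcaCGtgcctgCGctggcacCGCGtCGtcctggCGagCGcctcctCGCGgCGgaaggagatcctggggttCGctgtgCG
The whole window of Cep83os held 46 CpG, and 1.65% of all windows held as many or more. That window also held the RefSeq start of Cep83, 177 bases from that of the lncRNA. Uchl1os had 29 CpG, Pcsk2os1 17 and the whole window of Kcnd3os 16. In the overlapping set, Rab10os had 39, the whole window of Grin1os (not printed) 13, Dlx6os2 10, Dlx6os1 5 at the start shown, Chn1os3 4, Ppp2r2cos 3 and Pcsk2os2 2. The windows of Uchl1os and Dlx6os2 lay in annotated exons of the host. Those of both Pcsk2 lncRNAs and Ppp2r2cos, with the printed part of that of Kcnd3os, lay in introns. Those of Chn1os3, Dlx6os1 and Rab10os, with the printed part of that of Cep83os, lay outside the host gene. By the classes used here Pcsk2 carries 1 lncRNA of each kind, although the start of Pcsk2os1 shown lies within the host.

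Between 17984153 and 23529592 reads were assigned to genes per library, and the opposite-strand genes were at the low end of what this depth measures. Only 105 of the 257 reached 10 counts in 3 or more libraries and were tested, against 195 of the 218 hosts. The total over all libraries ranged from 44 to 5183 counts in the tested lncRNAs, with a median of 185, and from 1 to 60 in the 152 that were not tested. Of those 152, 136 had a host that was tested. The median CPM (counts scaled to 1000000 per library, not divided by gene length) was 1.51 for tested lncRNAs and 26.8 for tested hosts, and the median standard error (SE) of the log2 fold change was 0.28 for the lncRNAs and 0.10 for the hosts. One library stood apart. Saline sample 1 had a summed level of 354 CPM over 10 measured olfactory bulb markers, against 45.7 to 59.9 CPM in the other 5 libraries, and each of the 10 was more than 2 times as high as in any other library. Its 8 interneuron markers, among them the host Gad1, summed to 964 CPM, against 535 to 601 CPM elsewhere. Only 1 of these 8 was more than 2 times as high as in any other library. Its 5 excitatory neuron markers summed to 3694 CPM, against 4264 to 4661 CPM. In bulk tissue, fewer cells of a type and less RNA per cell cannot be told apart.

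No lncRNA and no host differed between the groups at an adjusted p under 0.05 (edgeR's quasi-likelihood test, Benjamini-Hochberg over 18970 genes), and neither did any of the other genes tested (0% called). The smallest adjusted p was 0.573 among the lncRNAs. At an unadjusted p under 0.05, 10 of the 105 tested lncRNAs differed, or 9.52%, beside 7.72% of all genes tested. Of these, 6 were higher in the morphine group, where the share over all genes was 2.77%, and 4 were lower, where it was 4.96%. By DESeq2, 16 of all genes had an adjusted p under 0.05 but no lncRNA or host did, and 5 of the 105 lncRNAs and 8 of the 195 hosts had an unadjusted p under 0.05, beside 5.13% of all genes. When no gene was removed for low counts, edgeR gave an adjusted p under 0.05 to 279 of 31763 genes. Among them were the lncRNAs Dlx6os1, Dlx6os2, Grin1os and Pcsk2os2 and the hosts Gad1 and Pax6. Dlx6os1, Dlx6os2, Gad1 and Pax6 were highest in saline sample 1, with 2251 counts of Dlx6os1 there against 505 to 661 elsewhere. That fit thus also called genes led by 1 library. Without saline sample 1 edgeR gave 6 of 98 lncRNAs an unadjusted p under 0.05, all of them among the 10. Of all genes, 11.7% then passed. The groups did not overlap in 8 lncRNAs that were higher and 9 that were lower, against 5.98% and 7.32% of all genes. The median log2 fold change was 0.041 over the tested lncRNAs, 0.0054 over the tested hosts and -0.0093 over all genes.

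Most of the lncRNAs at an unadjusted p under 0.05 were in overlapping pairs. Among them was Dlx6os2, which had 77 counts in saline sample 1 and 7 to 11 in each other library. Among 47 tested lncRNAs that overlapped their host, 5 passed the unadjusted threshold with higher and 3 with lower values in the morphine group, and the median log2 fold change was 0.068. That was 17.0% of the 47, beside 7.72% of all genes tested, of which 2.77% were higher and 4.96% lower. Of the 54 head-to-head lncRNAs 1 was higher and 1 lower, or 3.70% in all, with a median of 0.022, and of the 4 that lay apart none passed. With shared exon bases 9 of 82 passed and without them 1 of 23. The difference between these classes was not tested. For comparison, among 850 tested genes annotated as antisense without such a name, 66 were higher and 11 lower, or 9.06% in all, with a median of 0.11. The median log2 deviation of these genes from their mean was -0.10 in saline sample 1 and -0.0030 and -0.00085 in saline samples 2 and 3. In morphine samples 1, 2 and 3 it was 0.11, 0.022 and 0.098. The 4 tested lncRNAs whose names end in as or ot (Dlx1as, Kcnq1ot1, Sox1ot and Sox2ot) all had values below 0, with a median of -0.38, and 1 of them passed. Their median log2 deviation from the mean was 0.67 in saline sample 1, against -0.29 to 0.016 in the other 5 libraries.

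**Figure D1:**
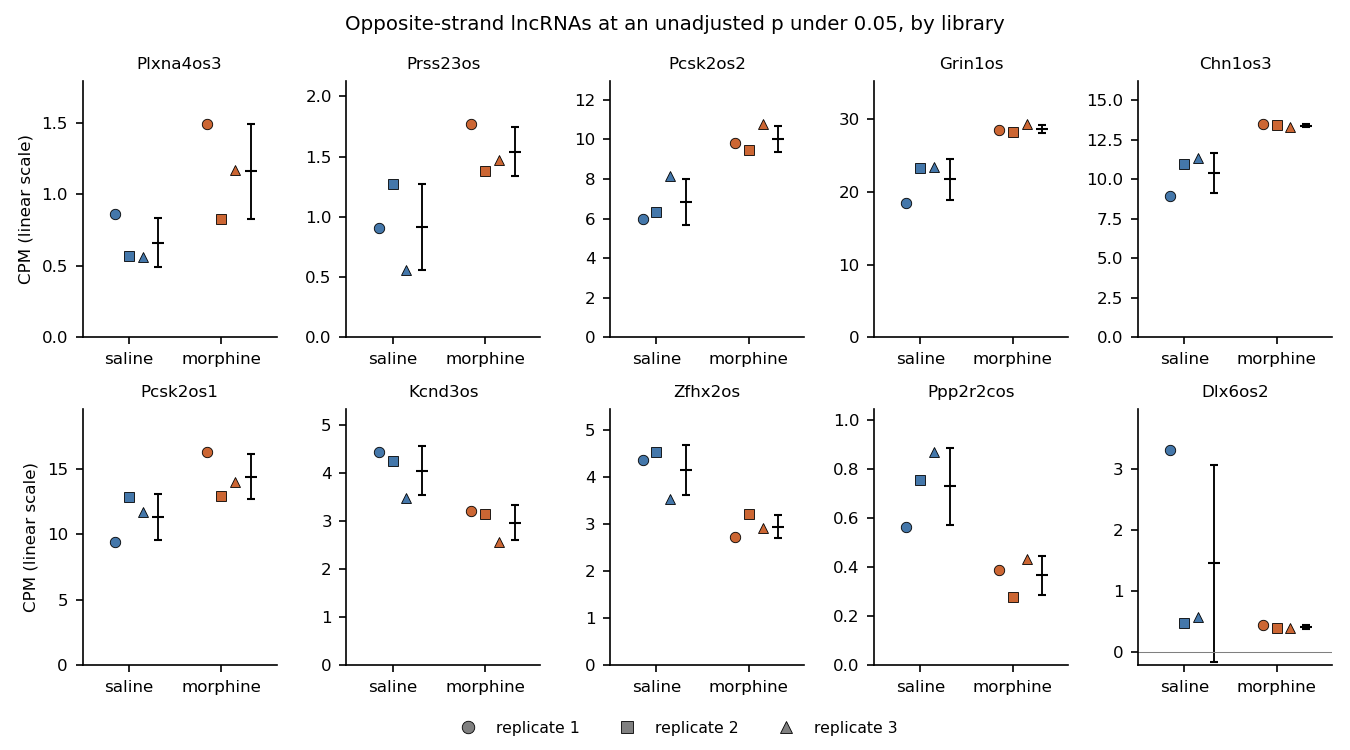
Level in CPM (linear vertical axis) of the 10 opposite-strand lncRNAs at an unadjusted p under 0.05, with 1 point per library and the mean ± SD of each group beside the points. In 9 panels the groups do not overlap, in Plxna4os3 they do, and in Dlx6os2 the saline mean is set by saline sample 1 and its SD reaches below 0.

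Grin1os had the smallest p of these 10 and, at a mean of 8.70 FPKM (fragments per kilobase of transcript, scaled to library depth), the highest level per length. It overlaps the 3′ end of Grin1, the gene of the obligatory subunit of NMDA receptors, at chr2:25291220-25298925, plus strand, with 4 exons and 45.2% of its exon bases shared with the host. It was measured at 18.5, 23.3 and 23.4 CPM in the saline group and 28.5, 28.2 and 29.3 CPM in the morphine group. Every morphine sample was above every saline sample, and saline sample 1 was the lowest. The group means were 21.8 ± 2.82 CPM against 28.7 ± 0.589 CPM (SD, n = 3), which gave 0.40 ± 0.10 (SE) as log2 fold change with an adjusted p = 0.573 (edgeR). Without saline sample 1 the log2 fold change was 0.30 ± 0.082 (SE). Grin1 itself stood at 485, 543 and 529.9 CPM in the saline group and 571, 547 and 548 CPM in the morphine group. Here too the groups did not overlap, but the log2 fold change was only 0.096 ± 0.056 (SE), with a 95% interval of -0.029 to 0.22. The log2 ratio of Grin1os to Grin1 was -4.58 ± 0.11 in the saline group and -4.27 ± 0.051 in the morphine group (SD, n = 3, exact permutation p = 0.1). That p is the smallest that 3 samples against 3 can give, so none of the 98 pairs with both genes tested could pass 0.05. Of these pairs, 19 are given here.

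Both tested lncRNAs of Pcsk2, the prohormone convertase that cleaves neuropeptide precursors in neurons, were higher in the morphine group. Pcsk2os2 starts inside the gene, 242915 bases from the nearest annotated start of the host, and Pcsk2os1 has a start 179 bases from one. The start of Pcsk2os1 shown above also lies inside the gene, in an intron. Pcsk2os2 was measured at 6.00, 6.32 and 8.17 CPM in the saline group and 9.84, 9.49 and 10.8 CPM in the morphine group. The groups were apart, with means of 6.83 ± 1.18 CPM against 10.0 ± 0.664 CPM (SD, n = 3) and a log2 fold change of 0.56 ± 0.14 (SE) (adjusted p = 0.573, edgeR). Values of Pcsk2os1 were 9.40, 12.9 and 11.7 CPM in the saline group and 16.3, 12.9 and 14.0 CPM in the morphine group. Morphine sample 2 lay just above saline sample 2, and the log2 fold change was 0.35 ± 0.14 (SE) (adjusted p = 0.616, edgeR), or 0.23 ± 0.12 (SE) without saline sample 1, where it no longer passed. Pcsk2 had 475, 592 and 605 CPM in the saline group and 659, 591 and 649 CPM in the morphine group. The groups of the host overlapped at a log2 fold change of 0.18 ± 0.088 (SE) and an adjusted p = 0.648 (edgeR), or 0.084 ± 0.054 (SE) without saline sample 1. Relative to Pcsk2, the log2 ratio of Pcsk2os2 was -6.33 ± 0.17 in the saline group and -5.97 ± 0.078 in the morphine group (SD, n = 3, exact permutation p = 0.1). For Pcsk2os1 it was -5.61 ± 0.088 in the saline group and -5.45 ± 0.11 in the morphine group (SD, n = 3, exact permutation p = 0.2). Saline sample 1, which had the lowest sum of excitatory neuron markers, was also the lowest library for Pcsk2 and both of its lncRNAs.

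Chn1, which codes for a GTPase-activating protein of Rac in neurons, likewise had a pair of tested lncRNAs. Chn1os3 (chr2:73596526-73616012, plus strand) starts beyond the 3′ end of Chn1 and shares 7.22% of its exon bases, while 83.8% of the exon bases of Chn1os1 are shared. Chn1os3 was found at 8.93, 10.9 and 11.3 CPM in the saline group and 13.5, 13.4 and 13.3 CPM in the morphine group. The morphine samples lay within a narrow range above all saline samples, with means of 10.4 ± 1.29 CPM against 13.4 ± 0.104 CPM (SD, n = 3) and a log2 fold change of 0.37 ± 0.12 (SE) (adjusted p = 0.595, edgeR). Without saline sample 1 this was 0.27 ± 0.11 (SE). Chn1os1 reached 11.9, 16.8 and 18.1 CPM in the saline group and 17.0, 17.2 and 20.9 CPM in the morphine group. These groups overlapped at a log2 fold change of 0.24 ± 0.15 (SE) and an adjusted p = 0.707 (edgeR), or 0.080 ± 0.11 (SE) without saline sample 1. Chn1 was measured at 769, 909.7 and 959 CPM in the saline group and 983, 911 and 1009.9 CPM in the morphine group. Saline sample 1 was the lowest library for the host and for both lncRNAs, and the host's log2 fold change was 0.14 ± 0.081 (SE), or 0.053 ± 0.055 (SE) without it. The log2 ratio of Chn1os3 to Chn1 was -6.39 ± 0.024 in the saline group and -6.16 ± 0.081 in the morphine group (SD, n = 3, exact permutation p = 0.1). That of Chn1os1 was -5.82 ± 0.16 in the saline group and -5.72 ± 0.13 in the morphine group (SD, n = 3, exact permutation p = 0.5).

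The other higher lncRNAs, Plxna4os3 and Prss23os, rested on few reads. Plxna4os3 lies within Plxna4, a semaphorin receptor of growing axons, at chr6:32303829-32316614, plus strand. It had 20, 12 and 11 counts in the saline group and 27, 15 and 27 counts in the morphine group, or 0.863, 0.566 and 0.562 CPM in the saline group and 1.49, 0.828 and 1.17 CPM in the morphine group. Morphine sample 2 was below saline sample 1, so the groups overlapped, and the log2 fold change was 0.79 ± 0.34 (SE) (adjusted p = 0.630, edgeR). Plxna4 had 277, 294 and 302 CPM in the saline group and 307, 298 and 310.2 CPM in the morphine group, a log2 fold change of 0.069 ± 0.051 (SE). Prss23os lies across Prss23, a serine protease gene, with 54.3% of its exon bases shared. It had 21, 27 and 11 counts in the saline group and 32, 25 and 34 counts in the morphine group, or 0.906, 1.27 and 0.562 CPM in the saline group and 1.77, 1.38 and 1.47 CPM in the morphine group. The lowest morphine sample was above the highest saline sample, and the log2 fold change was 0.74 ± 0.32 (SE) (adjusted p = 0.630, edgeR). Without saline sample 1 it was 0.73 ± 0.36 (SE) and no longer passed. Prss23 had 25.7, 20.6 and 19.8 CPM in the saline group and 20.6, 20.1 and 18.4 CPM in the morphine group. Its log2 fold change of -0.16 ± 0.11 (SE) had the opposite sign, and the log2 ratio of lncRNA to host was -4.50 ± 0.52 in the saline group and -3.60 ± 0.16 in the morphine group (SD, n = 3, exact permutation p = 0.1). For Plxna4os3 the ratio was -8.60 ± 0.37 in the saline group and -7.95 ± 0.37 in the morphine group (SD, n = 3, exact permutation p = 0.2).

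Zfhx2os and Kcnd3os were lower in the morphine group beside hosts whose groups overlapped. Zfhx2os lies across Zfhx2, a zinc-finger homeobox gene of neurons, at chr14:55053869-55075873, plus strand, and shares 73.1% of its exon bases with it. It was measured at 4.36, 4.53 and 3.52 CPM in the saline group and 2.71, 3.20 and 2.90 CPM in the morphine group. All morphine samples were below all saline samples, with means of 4.14 ± 0.536 CPM against 2.94 ± 0.247 CPM (SD, n = 3) and a log2 fold change of -0.50 ± 0.18 (SE) (adjusted p = 0.616, edgeR). Zfhx2 had 63.5, 77.9 and 74.6 CPM in the saline group and 63.3, 78.9 and 67.0 CPM in the morphine group. The groups of the host overlapped widely, at a log2 fold change of -0.045 ± 0.095 (SE) with a 95% interval of -0.26 to 0.17. Kcnd3os is classed as head to head with Kcnd3, which codes for the A-type potassium channel Kv4.3. The nearest annotated starts of both genes lie 131 bases apart, and Kcnd3os shares 12.2% of its exon bases. It had 4.44, 4.24 and 3.47 CPM in the saline group and 3.21, 3.15 and 2.55 CPM in the morphine group. Here again the groups were apart, with means of 4.05 ± 0.512 CPM against 2.97 ± 0.361 CPM (SD, n = 3) and a log2 fold change of -0.46 ± 0.18 (SE) (adjusted p = 0.619, edgeR), or -0.39 ± 0.21 (SE) without saline sample 1, where it no longer passed. Kcnd3 was found at 148, 109 and 108 CPM in the saline group and 121, 108 and 118 CPM in the morphine group. Saline sample 1 was the highest library for Kcnd3, and the host's log2 fold change was -0.072 ± 0.11 (SE). The log2 ratio of Zfhx2os to its host was -4.09 ± 0.27 in the saline group and -4.52 ± 0.053 in the morphine group (SD, n = 3, exact permutation p = 0.1). For Kcnd3os it was -4.87 ± 0.19 in the saline group and -5.24 ± 0.21 in the morphine group (SD, n = 3, exact permutation p = 0.1).

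Ppp2r2cos had the lowest level beside its host of all pairs named here. It lies in Ppp2r2c, a regulatory subunit of protein phosphatase 2A expressed in neurons, at chr5:36873595-36876879, minus strand, with no exon base shared. It had 13, 16 and 17 counts in the saline group and 7, 5 and 10 counts in the morphine group, or 0.561, 0.754 and 0.868 CPM in the saline group and 0.387, 0.276 and 0.433 CPM in the morphine group. The groups were apart, and the log2 fold change was -0.96 ± 0.38 (SE) (adjusted p = 0.619, edgeR), or -1.12 ± 0.45 (SE) without saline sample 1. Ppp2r2c had 566, 660.1 and 621 CPM in the saline group and 673, 629.7 and 691 CPM in the morphine group. The host's log2 fold change was 0.11 ± 0.066 (SE), with the opposite sign, and the log2 ratio was -9.55 ± 0.21 in the saline group and -10.49 ± 0.19 in the morphine group (SD, n = 3, exact permutation p = 0.1). In FPKM, in which levels of both genes can be set side by side, the lncRNA stood at 0.366 and the host at 144, or 0.255%.

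**Figure D2:**
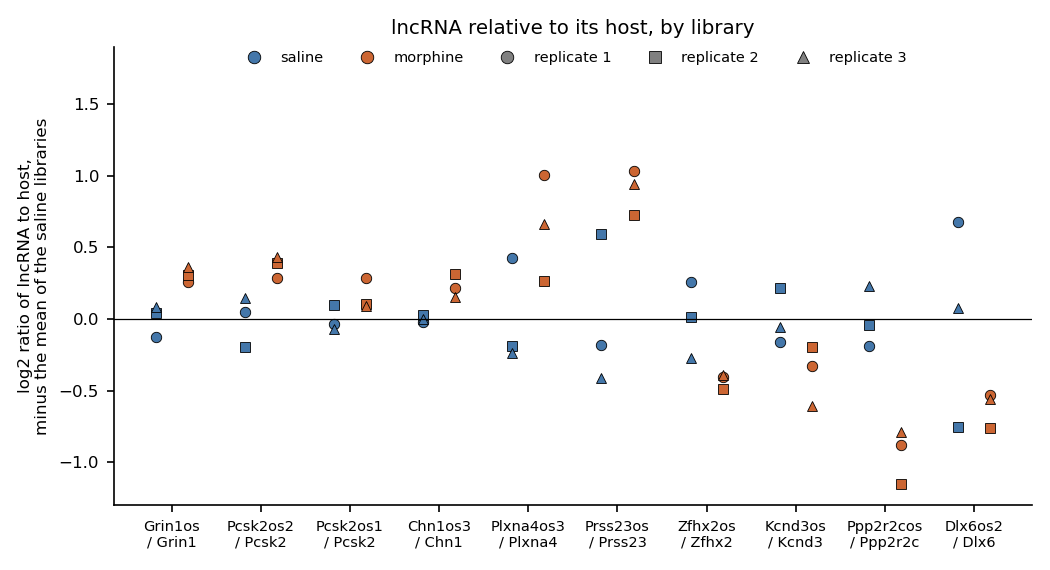
Log2 ratio of lncRNA to host level (CPM + 0.1) in each library for the 10 lncRNAs at an unadjusted p under 0.05, minus the mean of the 3 saline libraries of that pair. The groups do not overlap for the pairs of Grin1os, Pcsk2os2, Chn1os3, Prss23os, Zfhx2os, Kcnd3os and Ppp2r2cos, and they overlap for Pcsk2os1, Plxna4os3 and Dlx6os2. The 10 were chosen for a difference of the lncRNA in these same libraries, so the separation is in part a result of that choice. Of the 98 pairs with both genes tested, those of Fam120aos, Ift88os and Rapgef4os2, not shown, were also apart. With 3 samples against 3, a share of 0.1 of pairs would be apart without any difference between the groups. The pairs named here as apart are near that share of the 98.

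At the Dlx6 locus the difference between the groups was that of 1 library. Dlx6 is a homeobox gene of developing and adult GABAergic neurons. Dlx6os1 (chr6:6820189-6871592, minus strand) spans the whole of Dlx6 with no exon base shared, and Dlx6os2 (chr6:6863797-6865150, minus strand) is a single exon inside it. Dlx6os1 was measured at 97.1, 29.8 and 29.5 CPM in the saline group and 27.9, 30.6 and 28.6 CPM in the morphine group. Saline sample 1 was more than 3 times as high as any other library, and the other 5 lay within 27.9 to 30.6 CPM. The log2 fold change of -0.85 ± 0.39 (SE) (adjusted p = 0.638, edgeR) became -0.030 ± 0.079 (SE) without that sample. Dlx6os2 had 77, 10 and 11 counts in the saline group and 8, 7 and 9 counts in the morphine group, or 3.32, 0.471 and 0.562 CPM in the saline group and 0.442, 0.386 and 0.390 CPM in the morphine group. Its log2 fold change was -1.86 ± 0.73 (SE) (adjusted p = 0.616, edgeR), and without saline sample 1 it was under the count minimum and had no test. Dlx6 had 5.48, 2.40 and 1.53 CPM in the saline group and 1.94, 2.04 and 1.77 CPM in the morphine group. The host followed the same pattern, with a log2 fold change of -0.73 ± 0.40 (SE), or -0.049 ± 0.28 (SE) without saline sample 1. The log2 ratio of Dlx6os1 to Dlx6 was 3.96 ± 0.33 in the saline group and 3.85 ± 0.077 in the morphine group (SD, n = 3, exact permutation p = 0.7). That of Dlx6os2 was -1.38 ± 0.72 in the saline group and -1.99 ± 0.13 in the morphine group (SD, n = 3, exact permutation p = 0.3).

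The same library led for the hosts Gad1 and Pax6, which were chosen after their values were seen. Gad1, the enzyme of GABA synthesis, had 560.3, 253 and 235 CPM in the saline group and 260.1, 257 and 270.2 CPM in the morphine group. Pax6, a transcription factor of olfactory bulb interneurons, had 22.3, 6.74 and 6.18 CPM in the saline group and 6.08, 5.63 and 6.84 CPM in the morphine group. Saline sample 1 was over 2 times as high as any other library for both. Gad1 is itself among the 8 interneuron markers summed above, so its level and that sum are not separate observations. Of 11 counts of Gad1os in all, 9 were from saline sample 1, and of 11 counts of Pax6os1, 4 were. Saline sample 1 was also the library in which the sums of the olfactory bulb and interneuron markers were highest. Among the interneuron markers, Gad1, Gad2 and Slc32a1 were highest in that library. Pvalb and Lhx6 had their fewest counts there, 233 and 170, not scaled to depth, although it was among the deeper libraries. Scaled to library size, Vip was lowest there as well, and Npy and Sst lay between. Without that library, log2 fold changes were 0.11 ± 0.052 (SE) for Gad1 and -0.057 ± 0.16 (SE) for Pax6, and the part of the markers was not tested further.

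**Figure D3:**
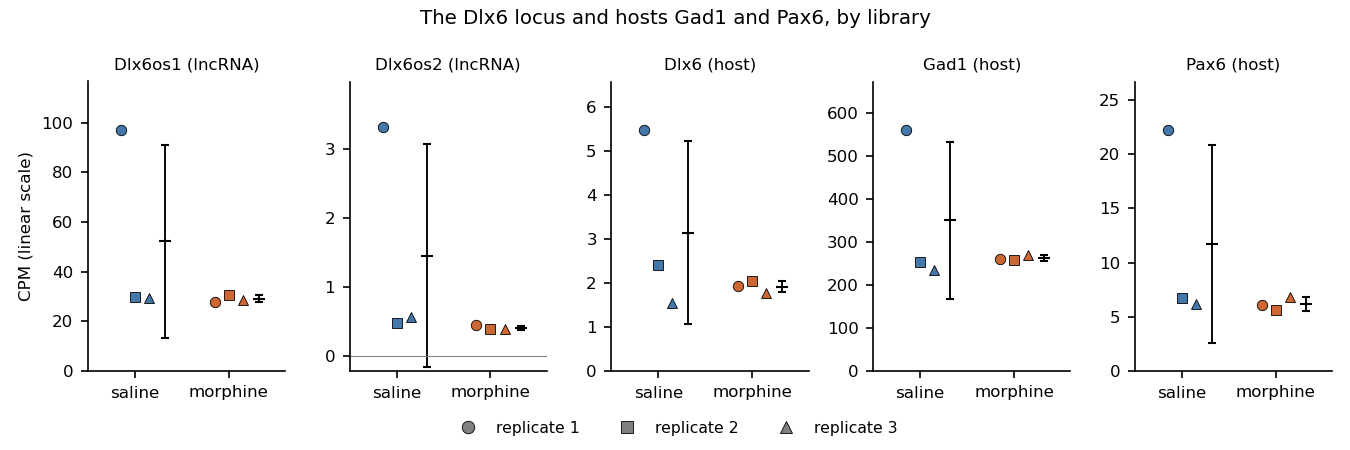
Level in CPM (linear vertical axis) of Dlx6os1, Dlx6os2 and their host Dlx6, and of the hosts Gad1 and Pax6, with 1 point per library and the mean ± SD of each group beside the points. Saline replicate 1 is the highest library in every panel, and the other 5 libraries of Dlx6os1 lie within 27.9 to 30.6 CPM.

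The lncRNAs with the most reads apart from these differed less between the groups. Cep83os, head to head with Cep83, which builds the distal appendages of centrioles for cilia, had the highest CPM of all, with 42.2, 39.3 and 40.1 CPM in the saline group and 42.6, 42.5 and 43.4 CPM in the morphine group. The groups were apart by a small margin, at a log2 fold change of 0.081 ± 0.061 (SE) with a 95% interval of -0.054 to 0.22. Cep83 had 34.7, 45.8 and 44.4 CPM in the saline group and 41.1, 39.9 and 37.8 CPM in the morphine group, a log2 fold change of -0.072 ± 0.10 (SE), or -0.19 ± 0.069 (SE) without saline sample 1, where it had an unadjusted p under 0.05. Rab10os, in the locus of the vesicle GTPase Rab10, was measured at 29.2, 31.3 and 25.2 CPM in the saline group and 29.3, 30.2 and 28.4 CPM in the morphine group. Rab10 had 159, 159 and 151 CPM in the saline group and 161, 154 and 163 CPM in the morphine group. Both had overlapping groups, with log2 fold changes of 0.036 ± 0.090 (SE) for the lncRNA and 0.029 ± 0.050 (SE) for the host. The 95% interval of Rab10os was -0.16 to 0.24. Relative to its host, the log2 ratio of Cep83os was -0.029 ± 0.27 in the saline group and 0.11 ± 0.076 in the morphine group (SD, n = 3, exact permutation p = 0.4). For Rab10os it was -2.45 ± 0.12 in the saline group and -2.44 ± 0.084 in the morphine group (SD, n = 3, exact permutation p = 1).

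Uchl1os, head to head with the deubiquitinase gene named above, stood at 17.8, 20.8 and 25.8 CPM in the saline group and 23.9, 22.1 and 24.6 CPM in the morphine group. The groups overlapped, at a log2 fold change of 0.14 ± 0.13 (SE) (adjusted p = 0.783, edgeR), which was 0.020 without saline sample 1 and 0.29 without saline sample 3, where it had an unadjusted p under 0.05. Uchl1 itself was one of the 4 hosts higher in the morphine group, at 332, 334 and 364 CPM in the saline group and 392, 366 and 383 CPM in the morphine group. All morphine samples were above all saline samples, with a log2 fold change of 0.15 ± 0.055 (SE) (adjusted p = 0.616, edgeR). The log2 ratio of Uchl1os to Uchl1 was -4.01 ± 0.20 in the saline group and -4.01 ± 0.047 in the morphine group (SD, n = 3, exact permutation p = 1). In FPKM the lncRNA stood at 4.64% of Uchl1.

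Of the 11 protein-coding genes with the ending, 5 were tested and none passed an unadjusted p under 0.05. The product of Wdr83os is a small membrane protein of the endoplasmic reticulum. Wdr83os has a start 6 bases from the nearest annotated start of Wdr83 and shares 52.3% of its exon bases. It was measured at 14.6, 12.4 and 15.6 CPM in the saline group and 14.8, 13.6 and 14.9 CPM in the morphine group. Wdr83 had 8.88, 10.8 and 11.2 CPM in the saline group and 10.3, 11.4 and 9.78 CPM in the morphine group. The groups overlapped for both genes, at log2 fold changes of 0.025 ± 0.11 (SE) and 0.024 ± 0.13 (SE). Brd3os lies apart from Brd3, a bromodomain reader of acetylated histones, and had 16.6, 14.6 and 16.1 CPM in the saline group and 18.8, 16.7 and 17.6 CPM in the morphine group. Its groups were apart at a log2 fold change of 0.17 ± 0.096 (SE) (adjusted p = 0.678, edgeR), while Brd3 had 61.6, 55.5 and 55.9 CPM in the saline group and 59.8, 57.9 and 61.5 CPM in the morphine group and a log2 fold change of 0.050 ± 0.062 (SE). Slc7a6os, beside the amino acid transporter gene Slc7a6, was found at 12.9, 12.4 and 11.6 CPM in the saline group and 12.1, 13.4 and 12.5 CPM in the morphine group. Slc7a6 had 32.3, 39.9 and 39.4 CPM in the saline group and 33.7, 34.5 and 31.9 CPM in the morphine group. These groups overlapped for both genes, at 0.038 ± 0.10 (SE) for Slc7a6os and -0.16 ± 0.090 (SE) for Slc7a6 on the log2 scale. Without saline sample 1 Slc7a6 was at -0.25 ± 0.072 (SE), with an unadjusted p = 0.00235 and an adjusted p = 0.112 (edgeR). For Wdr83os the log2 ratio to its host was 0.46 ± 0.26 in the saline group and 0.46 ± 0.18 in the morphine group (SD, n = 3, exact permutation p = 1). For Brd3os the log2 ratio was -1.87 ± 0.069 in the saline group and -1.75 ± 0.074 in the morphine group (SD, n = 3, exact permutation p = 0.2). For Slc7a6os it was -1.59 ± 0.23 in the saline group and -1.40 ± 0.068 in the morphine group (SD, n = 3, exact permutation p = 0.4).

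Brip1os was the lncRNA that most exceeded its host among pairs in which both were tested. Brip1, a helicase partner of BRCA1 in DNA repair, was scarcely detected, at 16, 1 and 13 counts in the saline group and 10, 6 and 9 counts in the morphine group. Brip1os, which runs head to head with it, had 12.6, 8.25 and 11.6 CPM in the saline group and 10.5, 11.7 and 10.7 CPM in the morphine group. In FPKM the lncRNA was 28.0 times as high as the host. Its log2 fold change was 0.019 ± 0.15 (SE), and that of Brip1 was -0.15 ± 0.65 (SE), with a 95% interval of -1.58 to 1.29. The log2 ratio was 4.59 ± 1.07 in the saline group and 4.42 ± 0.38 in the morphine group (SD, n = 3, exact permutation p = 1).

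In 98 pairs both the lncRNA and the host were tested. The FPKM of the lncRNA was a median of 12.6% of that of its host, and under 10% in 41 pairs. It was above the host in 8 pairs. Besides Brip1os these were Prox2os at 13.3 times its host, Dlx6os1 at 7.38 times, Wdr83os at 3.76 times, Ttc39aos1 at 2.08 times, Cep83os at 1.14 times, Runx2os1 at 1.12 times and Brd3os at 1.10 times. By arrangement the median was 14.5% in the 51 head-to-head pairs and 10.4% in the 44 overlapping pairs. A further 7 lncRNAs were tested while the host was not: Ccdc142os, Chrna1os, Fcnaos, Hmgb4os, Tnfsf13os, Tomm6os and Tspan32os, at 2.67 to 104 times the FPKM of the host. Grin1os stood at 15.7% of Grin1, near the median, while Chn1os3 was at 2.69% of Chn1, and Pcsk2os1 and Pcsk2os2 at 3.84% and 3.24% of Pcsk2.

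**Figure D4:**
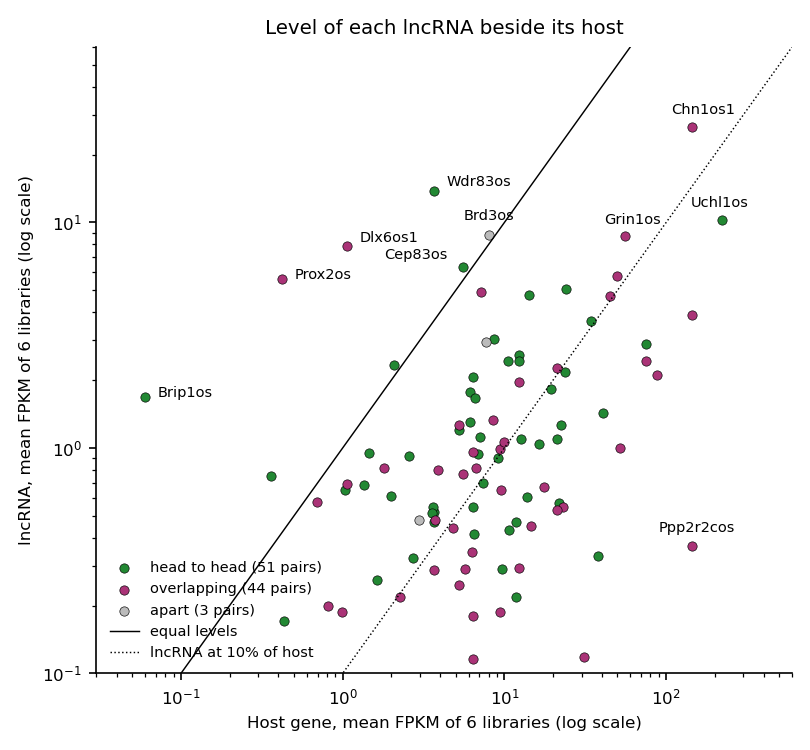
Mean FPKM over 6 libraries of each lncRNA against that of its host for the 98 pairs tested (both axes on a log scale), coloured by arrangement. Most points lie below the line of equal levels, 41 below the dotted line at 10% of the host, and 8 above the line of equal levels.

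Across these 98 pairs, lncRNA and host had a log2 fold change of the same sign in 63, of which 37 were positive and 26 negative, and of opposite sign in 35. The same 6 libraries give both values of a pair, and 77 of the 98 pairs share exon bases, so these counts are a description. The sign was the same in 51 of those 77 pairs and in 12 of the 21 without shared exon bases. Spearman's rho between the log2 fold changes was 0.29 and Pearson's r 0.41 across the 98 pairs, and 0.24 and 0.17 across the 96 pairs without those of Dlx6. The size of the log2 fold change was larger in the lncRNA in 77 pairs, with a median size of 0.20 against 0.087 in the hosts, beside the larger SE of the lncRNAs given above. In no pair did both genes pass an unadjusted p under 0.05.

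**Figure D5:**
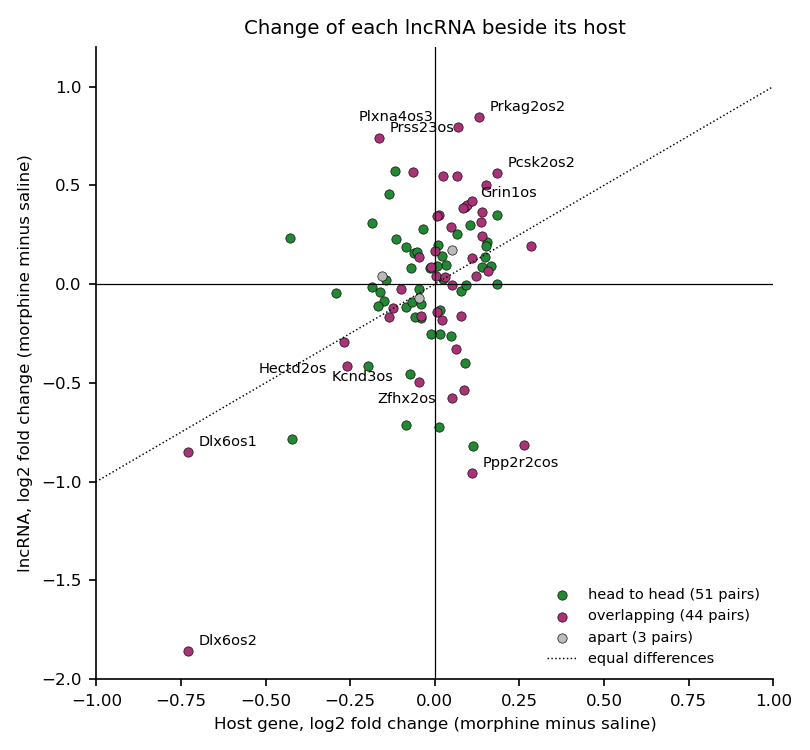
Log2 fold change (morphine minus saline) of each lncRNA on the vertical axis against that of its host on the horizontal axis for the 98 pairs, coloured by arrangement. The lncRNAs spread more widely than the hosts, and both Dlx6 pairs, which rest on saline sample 1, lie at the lower left.

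Of the 195 hosts tested, 11 or 5.64% had an unadjusted p under 0.05, beside 7.72% of all genes. Those higher in the morphine group were Slc36a1, Uchl1, Sox5 and Gss, and those lower were Hectd2, Grip1, Tmem74b, Akna, Cep112, Zfp652 and Dnah2. Without saline sample 1 the count was 22 of 194, beside 11.7% of all genes, and 7 of the 22 were among the 11. Sox5, Gss, Dnah2 and Zfp652 then no longer passed, at log2 fold changes of 0.10, 0.30, -0.30 and -0.087. Slc36a1, an amino acid transporter of lysosomes, had 104, 107 and 106 CPM in the saline group and 122, 120.1 and 116 CPM in the morphine group. Its groups were apart, at a log2 fold change of 0.18 ± 0.048 (SE) (adjusted p = 0.573, edgeR). Sox5, a transcription factor of deep-layer projection neurons, had 84.0, 90.5 and 90.3 CPM in the saline group and 103, 91.3 and 97.2 CPM in the morphine group. Gss, the glutathione synthetase gene, had 6.81, 6.74 and 6.90 CPM in the saline group and 7.69, 7.89 and 9.43 CPM in the morphine group. In both the groups were apart, at log2 fold changes of 0.14 ± 0.059 (SE) for Sox5 and 0.29 ± 0.13 (SE) for Gss. Most of their lncRNAs had few reads. Slc36a1os had 1 count in all, Gssos1 8 and Gssos2 9, and Sox5os1, the 1 tested of 4 at Sox5, had a log2 fold change of 0.32 ± 0.26 (SE).

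Among the hosts that were lower, Hectd2, an E3 ubiquitin ligase, had 54.2, 50.4 and 50.2 CPM in the saline group and 41.5, 46.1 and 41.7 CPM in the morphine group. The groups were apart, at a log2 fold change of -0.26 ± 0.067 (SE) (adjusted p = 0.573, edgeR). Hectd2os, which shares 46.1% of its exon bases with it, was lower as well in every morphine sample, at 1.21, 1.08 and 1.07 CPM in the saline group and 0.885, 0.717 and 0.909 CPM in the morphine group. With a log2 fold change of -0.42 ± 0.27 (SE) it did not pass (adjusted p = 0.709, edgeR). Grip1, a scaffold protein of AMPA receptors, had 49.4, 40.1 and 38.9 CPM in the saline group and 34.1, 36.1 and 34.1 CPM in the morphine group. Its groups were apart too, at a log2 fold change of -0.30 ± 0.093 (SE) (adjusted p = 0.590, edgeR), while its 3 lncRNAs had between 4 and 40 counts in all and were not tested.

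Tmem74b, a membrane protein gene, had 6.30, 7.07 and 5.26 CPM in the saline group and 4.76, 4.47 and 3.77 CPM in the morphine group. The groups were apart, at a log2 fold change of -0.53 ± 0.17 (SE) (adjusted p = 0.598, edgeR). Tmem74bos, which lies apart from it and was not tested, had 8, 7 and 6 counts in the saline group and 20, 9 and 10 counts in the morphine group. Akna, an AT-hook protein of centrosomes and nuclei, had 7.89, 6.93 and 6.49 CPM in the saline group and 4.20, 5.85 and 5.37 CPM in the morphine group. Its groups did not overlap, at a log2 fold change of -0.47 ± 0.16 (SE) (adjusted p = 0.616, edgeR). Aknaos had 2 counts in all. Cep112, a centrosomal protein gene, had 10.6, 12.4 and 12.4 CPM in the saline group and 8.46, 11.1 and 8.66 CPM in the morphine group. Dnah2, a dynein of motile cilia, had 6.43, 4.57 and 4.80 CPM in the saline group and 2.82, 4.69 and 3.85 CPM in the morphine group. The groups of both overlapped, at log2 fold changes of -0.33 ± 0.13 (SE) for Cep112 and -0.48 ± 0.21 (SE) for Dnah2. Their lncRNAs Cep112os1 and Dnah2os had 3 and 8 counts in all. Zfp652, a zinc-finger repressor, had 110.2, 104 and 104 CPM in the saline group and 99.3, 96.2 and 98.5 CPM in the morphine group. The groups were apart, at a log2 fold change of -0.12 ± 0.050 (SE), and Zfp652os was at 0.23 ± 0.40 (SE).

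The remaining 86 tested lncRNAs had mean levels of 0.358 to 7.20 CPM, and 45 had a positive and 41 a negative log2 fold change, from -0.82 to 0.84. In the head-to-head set, 24 had positive values of 0.0019 to 0.74: Appbp2os, Arhgap27os2, B9d1os, Cpeb1os1, Dhrs13os, Emx2os, Fcnaos, Hmgb4os, Hopxos, Kcnmb4os2, Lrp8os3, Man2c1os, Mccc1os, Myadml2os, Phf2os1, Ptgs2os, Taco1os, Tbx3os1, Tnk2os, Ube4bos3, Uckl1os, Usp46os2, Zfp335os and Zfp652os. The 24 with negative values of -0.82 to -0.0056 were Atad3aos, Bcas1os2, Ccpg1os, Cyp4x1os, Fam120aos, H3f3aos, Hk1os, Ino80dos, Junos, Lppos, Lrp8os2, Map2k3os, Mkln1os, N4bp2os, Phtf1os, Runx2os1, Sp3os, Stamos, Tmem147os, Tomm6os, Tspan2os, Ttc39aos1, Zbtb11os1 and Zeb2os. Overlapping lncRNAs had positive values in 20 cases, from 0.041 to 0.84: Atxn7l1os2, Ccdc142os, Cebpzos, Fam219aos, Fhad1os2, Kcnmb4os1, Lrrc75aos2, Mypopos, Nkx2-2os, Peak1os, Pitpnm2os2, Prkag2os2, Rapgef4os2, Rsf1os2, Sorbs2os, Sox5os1, St8sia3os, Tmem150cos, Ube4bos1 and Zfp85os. Values from -0.81 to -0.0071 were found for 16 more: Acss2os, Atcayos, Bach2os, Hectd2os, Ift88os, Kcnab3os, Kirrel3os, Nckap5los, Notumos, Prox2os, Rptoros, Slain1os, Srrm4os, Tnfsf13os, Tspan32os and Zmiz1os1. Of those that lay apart, Chrna1os was at 0.74 and Fbxl12os at -0.072. Prox2os, at 6.37 CPM, had the highest CPM of this group among the overlapping lncRNAs, and Tmem147os, at 7.20 CPM, among those head to head.

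Hosts with several tested lncRNAs were few. Besides Chn1, Dlx6 and Pcsk2, they were Kcnmb4, a subunit of BK potassium channels, Lrp8, a receptor for reelin, and Ube4b, a ubiquitin ligase. Kcnmb4os1 and Kcnmb4os2 had log2 fold changes of 0.50 ± 0.32 (SE) and 0.19 ± 0.21 (SE). Those of Lrp8os2 and Lrp8os3 were -0.71 ± 0.41 (SE) and 0.19 ± 0.35 (SE), of opposite sign. For Ube4bos1 and Ube4bos3 they were 0.55 ± 0.30 (SE) and 0.25 ± 0.36 (SE). None of these 6 passed an unadjusted p under 0.05.

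A further 152 lncRNAs were not tested, and those named here are given by their total count over the 6 libraries, in which up to 60 reads were found. With up to 5 reads these were Cntrobos, Fhitos, Hnf1aos1, Lhx1os, Maats1os, Pard3bos2, Six3os1, Slc36a1os, Wt1os and Zfp286os at 1, Aknaos, Bcas3os2, Crxos, Fhad1os1, Gldnos, Itpr3os, Otx2os1, Pard3bos3, Rspo4os, Sox5os2, Sox5os5, Tbx3os2 and Trp73os at 2, Ccdc34os, Cep112os1, Dnmt3bos, Igf1os, Kbtbd8os and Recql5os1 at 3, Arhgap15os, Arhgap33os, Grip1os2, Lyzl4os, Nell1os, Parvaos and Rsf1os1 at 4, and Kank4os, Mecomos, Ptprtos, Sox5os4 and Ube4bos2 at 5. From 6 to 14 reads were counted for Fancd2os, Pard3bos1 and Rap1gapos at 6, Dmrta2os, Gimap1os, Runx2os3 and Slfn5os at 7, Atxn7l1os1, Dnah2os, Fgf2os, Gssos1, Mipepos, Mxra8os and Unc45bos at 8, Gssos2, Macrod2os2, Runx2os2, Scpep1os, Sox6os and Usp46os1 at 9, Frmd8os and Tvp23bos at 10, Dgkeos, Gad1os, Grip1os1, Lrp8os1, Pax6os1 and Trpc5os at 11, Erich2os, Kif16bos, Plet1os, Rab11fip4os1 and Tmcc3os at 12, Lrrc75aos1 at 13, and Arhgap27os3, Clnkos, Dlx4os, Foxo6os, Macrod2os1 and Sardhos at 14. Gad1os and Pax6os1 were in this range. Between 15 and 24 reads were found for Adap2os, Egfros, Pip5k1bos, Ptgs2os2 and Rapgef4os1 at 15, Csmd2os and Faddos at 16, Alkbh3os1, Arf4os, Il1bos and Vax2os at 17, Dhx58os, Has2os and Srrm3os at 18, Bcas3os1, Igf2os and Pmepa1os at 19, Bloc1s6os, Dbhos, Lrrc8dos, Plxna4os1 and Rab26os at 20, Cdiptos, Foxd2os, Foxl2os and Rapgef3os2 at 21, Nrg3os, Nudt12os and Ppp1r18os at 22, Dio3os, Fmr1os, Myocos, Ppifos, Sap30bpos and Sspnos at 23, and Prkag2os1 and Rapgef3os1 at 24. Those nearest to the minimum were Dnmt3aos and Tmem51os1 at 25, Rab11fip4os2 at 26, Arl4aos, Med9os and Mettl5os at 29, Rbm3os at 30, Galnt6os and Nphs1os at 32, Pitpnm2os1 at 33, Far1os at 34, Abhd11os and Arhgap27os1 at 36, Plxna4os2 and Rapgef4os3 at 37, Anxa11os and Far2os2 at 38, Efhd1os, Etaa1os, Grip1os3 and Tbc1d22bos at 40, Arhgap20os and Prox1os at 41, Kdm6bos at 42, Far2os1 and Nr6a1os at 43, Cdk19os at 45, Frs3os and Smc2os at 46, Dnm3os at 49, Dtnbos at 50, Bcas1os1 at 51, and Tmem74bos at 60. These genes entered a fit only where no gene was removed for low counts, and none then had an adjusted p under 0.05 (edgeR).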

How the data were processed

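RNA of 6 mPFC samples, 3 saline and 3 morphine, had been rRNA-depleted, made into directional libraries and sequenced from both ends. The authors deposited whole-number counts per gene, not normalized, and FPKM values, which divide counts by gene length and library depth. The build named is mm10. According to the submitters' processing notes, the tools were StringTie 1.3.3, HTSeq 0.11.2, HISAT2 2.1.0, cutadapt 1.9.3, limma 3.40.6, DESeq 1.8.3 and DESeq2 1.26.0. Neither the notes nor the methods give the strand setting.

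Groups and replicate numbers follow the labels. Of the 31763 genes, 31748 were matched to GENCODE vM21, which gave strand, exons and type. A further 27 names with the ending had no host in the table and were left out, and a few genes with the ending are not reported here. Genes that reached 10 counts in 3 or more libraries were fitted together by TMM and the quasi-likelihood test of edgeR 4.0.16 (R 4.3.3), with treatment as the only term. P-values were two-sided and adjusted by Benjamini-Hochberg over 18970 genes. CPM used TMM library sizes. Ratios of lncRNA to host were log2((CPM + 0.1)/(CPM + 0.1)) with a two-sided exact permutation test, whose smallest p is 0.1. Promoter windows were RefSeq's for GRCm38. Scripts were tested on simulated data.

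Values per library are given for the 12 tested lncRNAs of highest mean CPM, every tested lncRNA or host at an unadjusted p under 0.05, and their hosts. The members and lists were chosen with earlier results of these data known. The alternatives were DESeq2 1.42.0, RLE factors, other filters, a replicate block, limma 3.58.1 on log2(FPKM + 0.1) and log2(FPKM + 1), leaving out each library, and other pseudocounts for ratios. Per library, 17984153 to 23529592 counts limit precision.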

Additional observations from a re-analysis of the deposited data

How the results depend on the processing

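The 10 lncRNAs at an unadjusted p under 0.05 became 5 by DESeq2 and 17 of 257 with no filter, 9 with at least 10 counts in all 6 libraries and 5 to 13 when 1 library was left out, 6 without saline sample 1 and 5 without morphine sample 1. The 11 hosts became 21 with no filter, 7 by limma on either FPKM scale and 5 to 22 when 1 library was left out, with 22 without saline sample 1, 18 without saline sample 3 or morphine sample 2, and 5 without morphine sample 1 or 3. Without the filter, Dlx6os1, Dlx6os2, Gad1 and Pax6, all highest in saline sample 1, had an adjusted p under 0.05 (edgeR), as did Grin1os and Pcsk2os2. In no other alternative did any lncRNA or host have one. Over all genes, 16 had one by DESeq2 and 186 without saline sample 1, and an unadjusted p under 0.05 was found for 5.13% by DESeq2, 7.87% with no filter, 6.96% and 7.02% by limma and 4.01% to 11.7% with 1 library left out. That share was 8.03% with at least 10 counts in all 6 libraries and 6.93% with the replicate number as a block. The median log2 fold change of the lncRNAs was 0.0929 with no filter, 0.0899 with at least 10 counts in all 6 libraries, 0.0571 and 0.0253 by limma on log2(FPKM + 0.1) and log2(FPKM + 1), and 0.0363 to 0.0757 with 1 library left out. For hosts it was -0.0083 and -0.0071 by limma on these scales, and -0.0100 to 0.0270 with 1 library left out. Chn1os3, Grin1os and Pcsk2os2, and the hosts Grip1, Hectd2, Slc36a1 and Tmem74b, passed an unadjusted p under 0.05 in every alternative, and each of the other 7 lncRNAs and 7 hosts lost it in at least 1. With 1 library left out the sign turned for Rab10os (-0.0415 to 0.11), Wdr83os (-0.0626 to 0.10), Slc7a6os (-0.0030 to 0.0737), Brip1os (-0.14 to 0.15), Cep83 (-0.19 to 0.0031), Kcnd3 (-0.15 to 0.0939), Wdr83 (-0.0742 to 0.0935) and Zfhx2 (-0.14 to 0.0184), none of which had passed. The morphine minus saline difference of the log2 ratio to the host changed sign in at least 1 alternative for Brip1os, Uchl1os, Wdr83os, Dlx6os1 and Rab10os. For Ppp2r2cos this difference moved by over 1 SD, from -0.94 to -0.45, with 1 added to the CPM. The causes were not tested. Same-numbered samples did not deviate together (correlations of 0.015, 0.0015 and -0.021), and with the replicate number as a block 9 lncRNAs and 8 hosts passed. Low counts limit the lncRNAs, of which those not tested had up to 60 reads over all libraries.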
